A study of Rattus norvegicus with 3 samples.

Results

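The genes described here were 22 centrosome genes and 9 alpha- and beta-tubulin isotypes, 31 genes in all of the 35561 gene names on the array, read by 40 of its 41012 gene probes. They were chosen by name: the gene probes whose name in the scanner files begins with Cep and a digit, with Tub and an isotype letter, with Tubgcp or with Cetn, or is Plk4, Sass6, Pcnt, Nin, Cdk5rap2, Azi1, Pcm1 or Stil or begins so, while 1 further matching gene, Cenpj, was left out. The tested cells were rat induced pluripotent stem cells named iPS F65, untreated and grown on irradiated mouse embryonic fibroblasts, with 3 samples labelled with Cy3. They were compared with mix1, a mixture of 2 adult cell sources, bone marrow cells and primary fibroblasts of the ear, both of rat and both cultured, labelled with Cy5. Each of the 3 iPS F65 samples was hybridised against mix1 on its own 2-colour Agilent array, so mix1 counted as 1 control sample, and the comparison asks how the reprogrammed cells differ in expression from adult cells. The sources used here do not say whether the 3 samples came from separate cultures, so the p-values cover the spread among these samples alone, possibly a technical one, and no spread of mix1. All 3 arrays carried the dyes in the same orientation, so a dye effect cannot be told apart from a difference between the cells.

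The centrosome organises microtubules in animal cells. It holds a pair of centrioles, each copied once per cell cycle by the kinase Plk4 and the scaffold proteins Stil and Sass6, inside a matrix that carries rings of gamma-tubulin, from which microtubules grow. The microtubules themselves are polymers of alpha- and beta-tubulin, encoded by several isotype genes whose use differs between tissues. Centrosome duplication is tied to the division cycle, while tubulin RNA is abundant in nearly every cell, dividing or not.

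Of the 31 names, 30 matched a RefSeq symbol, and 7 of these are now called otherwise. The match was by accession, or else by the name itself or by a synonym held by 1 gene. Azi1 is Cep131, Cep1 is Cntrl (centriolin), Tuba4 is Tuba4a, Tuba6 is Tuba1c, Tubb2c is Tubb4b and Tubb4 is Tubb4a. The probe named Pcnt1 carries the accession of Nup85, a nuclear pore protein, and not of pericentrin. It stays among the 22 by its file name. The count called from the processed signals and the gap between both groups are also given without it. Other counts and medians of the centrosome genes, those of promoters among them, include it. Cep27 matched no symbol. The names used below are those of the scanner files.

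Each probe is a 60-base oligonucleotide, and the probes whose readings differed most within a gene, or that resemble a probe of another gene, are shown here because the tubulin results turn on them. Coordinates are those of the scanner files, on rat build rn3. The 3 probes of Tubb2b lie on the plus strand of chromosome 17. In the first pair below, capitals mark the bases that the Tubb2b probe and the Tubb5 probe share over an overlap of 35 bases with 3 mismatches, and in the second pair those that another Tubb2b probe shares with the Tubb4 probe over 42 bases with 8 mismatches.
Tubb2b, chr17:37093457-37093516: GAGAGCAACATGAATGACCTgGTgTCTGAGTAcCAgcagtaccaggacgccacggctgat
Tubb5, chr20:3064083-3064142: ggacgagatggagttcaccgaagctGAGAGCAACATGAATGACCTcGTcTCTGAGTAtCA
Tubb2b, chr17:37092716-37092775: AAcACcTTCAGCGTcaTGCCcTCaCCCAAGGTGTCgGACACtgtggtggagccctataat
Tubb4, no position given in the files: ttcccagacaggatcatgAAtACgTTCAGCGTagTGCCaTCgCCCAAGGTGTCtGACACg
The last Tubb2b probe, which overlapped no probe of another member, has no capitals.
Tubb2b, chr17:37092799-37092858: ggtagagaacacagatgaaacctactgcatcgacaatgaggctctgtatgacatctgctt
The overlap was computed between member probes, over at least 20 bases with at least 80% identity, and the first pair was the only one in which a member's probe and another gene's probe on the array shared an unbroken run of 20 bases. These letters show how alike isotype probes are. Cross-hybridisation between the isotypes was not tested.

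The 3 probes of Cdk5rap2 lie on the minus strand of chromosome 5, spread along the gene, and are shown because they gave 3 different ratios. The position of the last spans more than the probe's own length.
Cdk5rap2, chr5:87574712-87574771: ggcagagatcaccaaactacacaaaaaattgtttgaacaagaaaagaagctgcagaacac
Cdk5rap2, chr5:87625078-87625137: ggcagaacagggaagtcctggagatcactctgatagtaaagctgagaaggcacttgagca
Cdk5rap2, chr5:87691830-87697208: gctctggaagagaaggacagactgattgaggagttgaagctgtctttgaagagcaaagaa
No member probe of Cdk5rap2 shared a run of 20 bases with a probe of another gene.

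Centrosome genes were mostly higher in iPS F65 than in mix1, and tubulin isotypes were not. Of the 22 centrosome genes, 21 were measured, and 16 of these were higher in iPS F65, by between 2.25-fold and 9.23-fold, while 0 were lower and 5 were neither. A gene was called where limma's adjusted p, by Benjamini-Hochberg over all genes tested, was under 0.05 and the ratio was at least 2-fold either way. Against the 76.2% of measured centrosome genes called higher, 30.9% of the 21805 genes tested were called higher and 24.5% lower. Of the 9 tubulin isotypes, 8 were measured, with 0 higher and 0 lower by this rule, although each had an adjusted p under 0.05 (limma). The median log2 ratio of iPS F65 over mix1 was 1.69 for the centrosome genes, -0.26 for the tubulins and 0.25 for all genes tested. Without Pcnt1, 15 of 20 centrosome genes were higher. In bulk RNA, fewer cells of a type and less RNA per cell cannot be told apart.

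The gap between both groups was similar on the 3 arrays. The median over centrosome genes minus the median over tubulins was 1.89, 1.99 and 1.94 on the log2 scale on the arrays of replicates 1, 2 and 3, with a mean of 1.94 ± 0.0513 (SD, n = 3). All 21 measured centrosome genes were above 0 on each of the 3 arrays. Of the 8 tubulins, 3 were above 0 and 5 below 0 on each array. The median of all genes tested was itself above 0, at 0.24, 0.25 and 0.26 on these arrays. The share of all genes above or below 0 on each array was not counted. The same design with another correction, normexp background adjustment and loess on the mean signals, moved the median of all genes to -0.08. There, 13 of the 21 centrosome genes were higher against 18.3% of all genes, 0 were lower, and 1 of the 8 tubulins was lower against 26.1% of all genes. With normexp and the local backgrounds as given, uneven ones included, 8 of the 21 centrosome genes were higher against 10.8% of all genes, at log2 ratios of 1.06 to 2.00, and the gap between both groups was 1.25. In that setting 0 of the 8 tubulins were lower, against 9.54% of all genes.

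**Figure D1:**
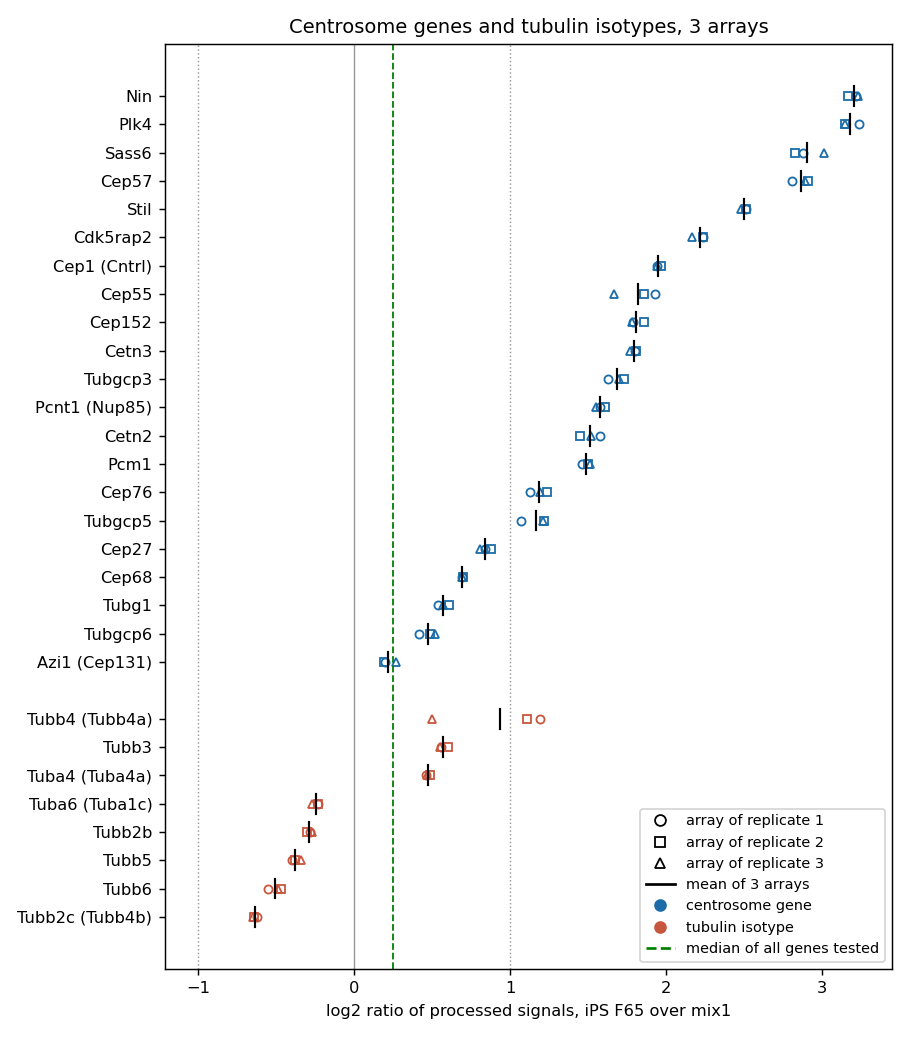
The log2 ratio of processed signals, iPS F65 over mix1, on the x axis for the 21 centrosome genes and 8 tubulin isotypes measured, with 1 symbol per array, a black bar at the mean of the 3 arrays, dotted lines at 2-fold and a dashed line at the median of all genes. Every centrosome gene lies right of 0, between 0.22 and 3.21, and the tubulins lie between -0.63 and 0.93.

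**Figure D2:**
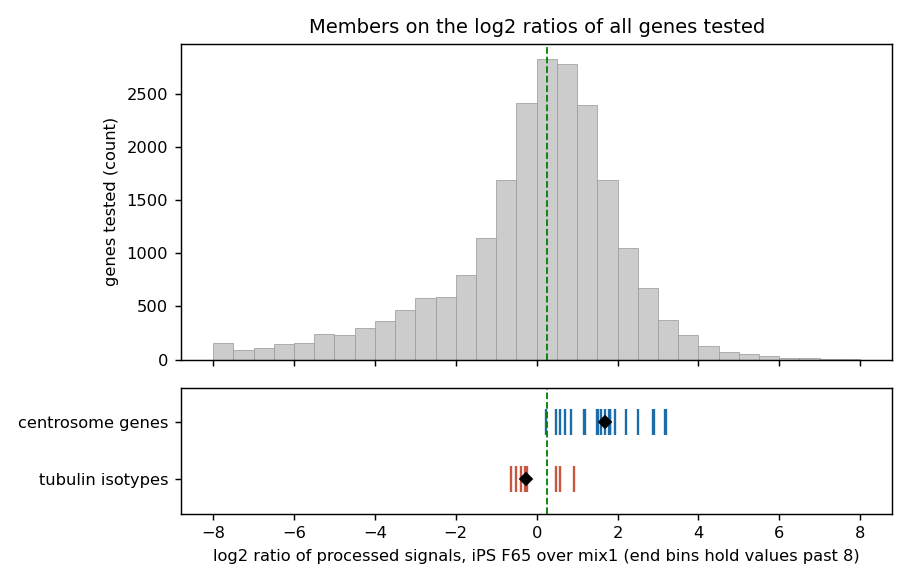
Upper panel: a histogram of the log2 ratio, iPS F65 over mix1, of the 21805 genes tested, in bins of width 0.5 on the log2 scale, with values past 8 in the end bins. Lower panel: each measured member as a tick and each group's median as a diamond, at 1.69 for centrosome genes and -0.26 for tubulin isotypes, with the dashed line at the median of all genes, 0.25.

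Of the genes of centriole duplication, Plk4, Stil and Sass6 were each more than 5-fold higher in iPS F65, and Cep152 and Cep76 less so. Plk4, the kinase that starts a new centriole, had signals of 4274, 5138 and 5362 in the 3 iPS F65 samples, against 450.9, 578.3 and 606.1 in mix1 on the same arrays. Each iPS F65 signal was above every mix1 signal, and the ratio was 9.07-fold (log2 3.18 ± 0.0558, SD, n = 3, limma adjusted p = 7.34e-06). Stil, which binds Plk4 and recruits the cartwheel, had signals of 658.5, 808.0 and 857.6 in iPS F65 and 115.4, 141.8 and 153.9 in mix1. Its groups did not overlap either, at 5.66-fold (log2 2.50 ± 0.0192). The share of all genes tested without such an overlap was not counted, here or below. With normexp and the local backgrounds as given, Stil had 0.80 and was not called.

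Sass6, the protein that forms the cartwheel of the new centriole, had signals of 686.5, 736.7 and 794.9 in iPS F65 and 93.4, 103.7 and 98.9 in mix1, a ratio of 7.49-fold (log2 2.90 ± 0.0919). With backgrounds as given it had 0.94 and was not called. Its second probe was not well above background in mix1 on any array and gave at least 2.68-fold, counted against the dimmest signals still well above background. Cep152, which anchors Plk4 at the parent centriole, had 3590, 4111 and 4182 in iPS F65 against 1037, 1134 and 1214 in mix1, at 3.51-fold. Cep57, a protein of the matrix next to the centriole, had 4016, 5051 and 4909 in iPS F65 against 573.4, 674.3 and 661.6 in mix1, at 7.30-fold (log2 2.87 ± 0.0524). For all of these the lowest iPS F65 signal exceeded the highest mix1 signal. That also held for genes under 2-fold, such as Tubg1 and Tubb3, so it does not set these genes apart. Cep76, known in human cells to restrain repeated duplication, was closer to the threshold, with 527.8, 642.9 and 628.4 in iPS F65 and 241.1, 273.0 and 274.8 in mix1. Its log2 ratio of 1.19 ± 0.0531 was called higher, but it was 0.67 with normexp and loess and 0.35 with backgrounds as given, and was called in neither.

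In the matrix and the gamma-tubulin ring, the genes differed among themselves. Cdk5rap2, which ties the ring complex to the centrosome and is mutated in human primary microcephaly, had signals of 4055, 5164 and 5557 in iPS F65 and 858.3, 1096 and 1232 in mix1 by its brightest probe, at 4.65-fold. Its other probes were also above 0 on each array, with mean log2 ratios of 1.49 and 0.70 beside 2.22. By the probe at 0.70 alone the gene would not be called. With normexp and loess these other probes gave 0.77 and 0.23, both under 2-fold, and the brightest gave 1.69. The gap of 1.52 between probes was larger than the SD between arrays of any of them, at most 0.168. Probes along the gene can read different transcripts, and which ones was not tested.

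Tubgcp3, a core subunit of the gamma-tubulin complex, was 3.22-fold higher in iPS F65, with signals of 681.6, 768.4 and 773.0 in iPS F65 and 219.8, 232.1 and 237.9 in mix1, but with backgrounds as given its log2 ratio was 0.56 and not called. Tubgcp5, a subunit of the larger ring, had 3331, 3582 and 3732 in iPS F65 against 1584, 1535 and 1610 in mix1, with a log2 ratio of 1.17 ± 0.0840. That call was lost with normexp and loess, at 0.66, and with backgrounds as given, at 0.74. The ring's own tubulin, Tubg1, had 1544, 1881 and 1881 in iPS F65 against 1062, 1233 and 1269 in mix1. Its groups did not overlap, but its log2 ratio of 0.57 was under 2-fold. Tubgcp6, another ring subunit, had a log2 ratio of 0.48. The subunits had log2 ratios from 0.48 to 1.69 in these samples.

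Proteins of the older centriole and of its surroundings ranged widely. Nin (ninein), which anchors microtubules at appendages of the older centriole, had signals of 1275, 1512 and 1476 in iPS F65 and 137.0, 167.5 and 157.8 in mix1, at 9.23-fold (log2 3.21 ± 0.0275, limma adjusted p = 5.64e-06). Its iPS F65 signals were all above its mix1 signals. Its log2 ratio was 2.31 with normexp and loess, and 1.27 with backgrounds as given, where it was not called. Cep1, or centriolin, another protein of the older centriole with a part in the last step of cell division, had 3335, 3714 and 3759 in iPS F65 against 871.9, 946.9 and 981.9 in mix1, at 3.86-fold. Its second probe was not well above background in mix1 and gave at least 1.41-fold.

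Pcm1, the scaffold of the granules called centriolar satellites, had 4397, 5107 and 5248 in iPS F65 and 1595, 1806 and 1845 in mix1, with a log2 ratio of 1.49 ± 0.0238. With normexp and loess it was 0.99, just under the threshold. Azi1 (Cep131), another satellite protein, had 1036, 1161 and 1187 in iPS F65 against 901.6, 1015 and 985.0 in mix1. This was the lowest log2 ratio among the centrosome genes, 0.22, below the median of all genes, and it turned to -0.19 with normexp and loess and to -0.03 when that median was set to 0. Cep68, a protein of the linker between the centrioles, had 13602, 16114 and 15728 in iPS F65 and 8457, 9893 and 9733 in mix1. Its log2 ratio of 0.69 was above 0 on each array and under 2-fold.

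The centrins are small calcium-binding proteins of the centriole. Cetn2 had 2553, 3172 and 3183 in iPS F65 against 854.8, 1161 and 1111 in mix1, at 2.86-fold (0.89 on the log2 scale and not called with backgrounds as given), and Cetn3 was 3.46-fold higher, with log2 ratios of 1.80, 1.81 and 1.77 on the 3 arrays. For Cetn1, a centrin of testis, neither probe was well above background in either cell source on any array, so no ratio was tested. Those probes lie on opposite strands and share 43 bases.

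The remaining names were Cep55, Pcnt1 and Cep27. Cep55, which acts at the bridge between dividing daughter cells, had 417.6, 480.1 and 464.8 in iPS F65 and 109.7, 132.1 and 145.7 in mix1, at 3.53-fold. With backgrounds as given its log2 ratio was 0.47 and not called. It had the widest spread between arrays of the centrosome genes, an SD of 0.132 on the log2 scale. The Pcnt1 probe, which reads Nup85, was 2.99-fold higher, and Cep27 had a log2 ratio of 0.84. The human gene once called CEP27 encodes a subunit of augmin, a complex that branches microtubules in the spindle.

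Of the 8 tubulins measured, 7 gave bright signals in both cell sources and Tubb4 a dim one, and by each gene's brightest probe all were under 2-fold. Tubb5, a widely expressed beta-tubulin, had signals of 121679, 152778 and 156938 in iPS F65 against 160586, 199150 and 199109 in mix1. Its log2 ratio of -0.38 ± 0.0291 was below 0 on each array and under 2-fold. Tubb2c (Tubb4b), another widely expressed beta-tubulin, had 110338, 129619 and 127894 in iPS F65 against 169180, 202358 and 200032 in mix1. Its iPS F65 signals were all below its mix1 signals, and its log2 ratio was -0.63 ± 0.0158, the lowest of the tubulins. It was called lower with normexp and loess, at -1.01.

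Tuba6 (Tuba1c), an alpha-tubulin, had 75626, 90075 and 85606 in iPS F65 against 88747, 105663 and 103239 in mix1, with a log2 ratio of -0.24. Its second probe, whose accession is listed for both Tuba1a and Tuba1c, gave -0.34. That probe is placed on chromosome 5, and the brighter one on chromosome 7. Tuba4 (Tuba4a) had 49955, 59362 and 58777 in iPS F65 against 36343, 42163 and 42372 in mix1, and its log2 ratio of 0.47 was above 0 on each array. Both alpha-tubulins were under 2-fold.

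Tubb3, the beta-tubulin used as a marker of neurons, had 10119, 11565 and 11630 in iPS F65 against 6857, 7649 and 7917 in mix1. Its groups did not overlap, and its log2 ratio of 0.57 ± 0.0224 was under 2-fold. Other neuronal genes moved more: of 9 neuron markers tested, 7 were higher and 2 lower in iPS F65, against 30.9% and 24.5% of all genes. The summed signal of that list was 47062 to 54154 in iPS F65 and 10831 to 12443 in mix1. Among them Elavl4, a neuronal RNA-binding protein, had a log2 ratio of 5.03 and Gap43, a growth cone protein, of 3.57. Ncam1, an adhesion molecule, had -4.63, and Nefh, a neurofilament subunit not well above background in iPS F65, was at least 6.02-fold lower. Whether cells with these markers had a part in the Tubb3 signal was not tested.

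Tubb4 (Tubb4a), a beta-tubulin of brain and the dimmest tubulin measured, had 262.9, 308.4 and 486.8 in iPS F65 against 115.1, 142.7 and 344.4 in mix1. Both channels were brightest on the array of replicate 3, so both groups overlapped across arrays, although iPS F65 was above mix1 on each array. The log2 ratios were 1.19, 1.11 and 0.50, with a mean of 0.93 ± 0.379 (SD, n = 3, limma adjusted p = 0.0117), which was not called. Without replicate 3 the mean was 1.15 and the gene was called higher. Its SD was the widest of the tubulins, of which the other measured genes had at most 0.0398. Tubal3, an alpha-tubulin-like gene, was not well above background in either cell source on any array.

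Probes of the same tubulin gene disagreed by more than the arrays did. For Tubb2b, a beta-tubulin of the developing brain, the brightest probe, which overlaps the Tubb5 probe, had 121472, 154121 and 158486 in iPS F65 against 147945, 189983 and 191098 in mix1, with a log2 ratio of -0.29. The probe that overlaps the Tubb4 probe gave -0.12. The probe with no such overlap had 39185, 44619 and 45259 in iPS F65 against 17540, 20774 and 21651 in mix1. Its log2 ratios were 1.16, 1.10 and 1.06 on the 3 arrays, so it read 2.16-fold higher in iPS F65, past the call rule when tested over all probes (limma adjusted p = 3.51e-05). The gap of 1.39 between the probes exceeded their largest SD between arrays, 0.0482. With normexp and loess the same probes gave -0.66, -0.31 and 0.89. Tubb2b is therefore not settled as a single value: by its brightest probe or by the median of its probes, -0.12, it was not called, and by the last probe alone it would be.

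Tubb6, a beta-tubulin of many tissues, had 2 probes that were both below 0. The brighter had 18311, 22366 and 22539 in iPS F65 against 26809, 31077 and 31664 in mix1, with a log2 ratio of -0.50 ± 0.0398. The other had 12209, 14376 and 14790 in iPS F65 against 28300, 32653 and 33570 in mix1. It read 2.29-fold lower in iPS F65 (log2 -1.19 ± 0.0172, limma adjusted p over all probes 1.11e-05). By this probe alone Tubb6 would be called lower, and by the median of its probes, -0.85, it was not.

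**Figure D3:**
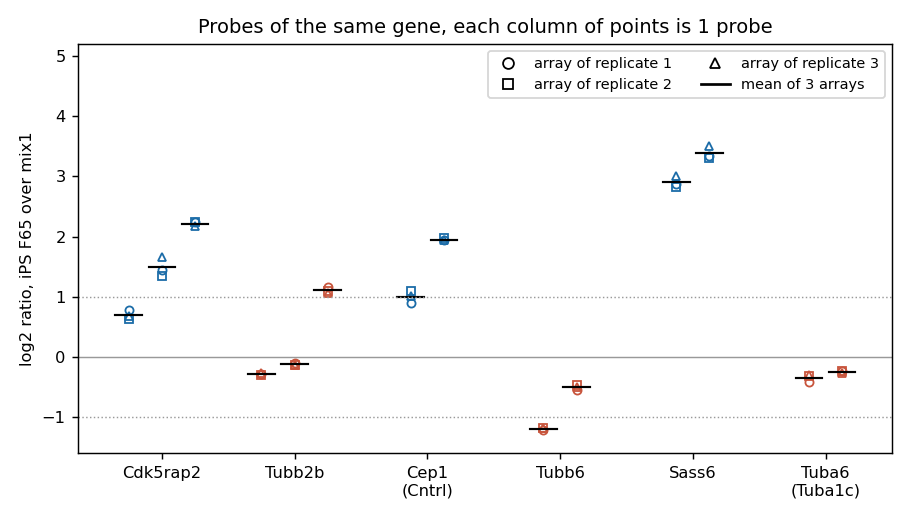
The log2 ratio, iPS F65 over mix1, on the y axis for the genes with 2 or 3 measured probes, where each column of points is 1 probe with 1 symbol per array and a bar at its mean. The Cdk5rap2 probes stand at 0.70, 1.49 and 2.22 and the Tubb2b probes at -0.29, -0.12 and 1.11, gaps that are wide beside the spread of the arrays.

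The tubulins were far brighter than most centrosome genes, so the ratio was also set beside that of all genes within each group's intensity range. Genes were not matched by brightness within a range, and the centrosome range held 13773 of the 21805 genes tested. For 7 of the 8 tubulins the mean log2 intensity was at least 13. Their median log2 ratio was -0.29, and the 3544 genes of the same intensity range had a median of 0.28. The 21 centrosome genes, with a log2 intensity of 7.9 to 14.3, had a median of 1.69 beside 0.34 for the 13773 genes of that range. Only 2 genes counted as centrosome genes had a log2 intensity of at least 13. They were Cep68, at a log2 ratio of 0.69, and the Pcnt1 probe, which reads Nup85, at 1.58. Their median was 1.14 beside 0.43 for the 1105 genes of their range. Both groups thus hardly shared an intensity range.

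**Figure D4:**
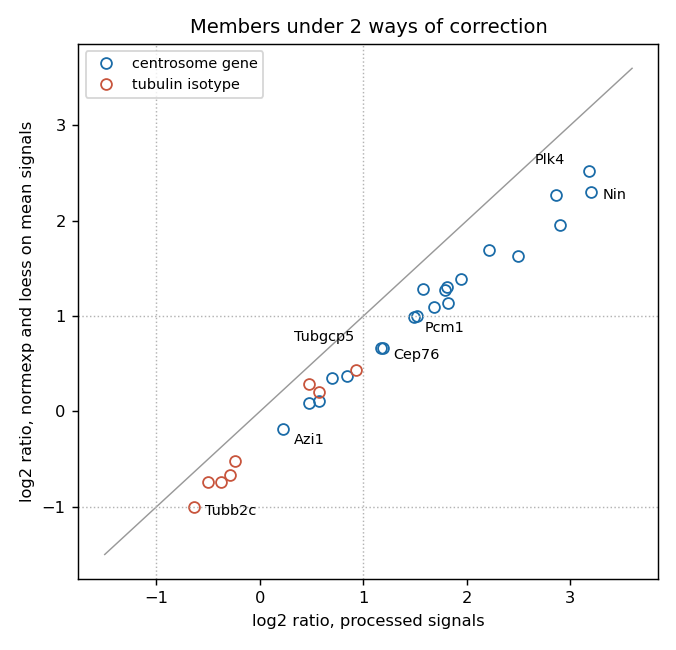
Each measured member's log2 ratio, iPS F65 over mix1, from the processed signals on the x axis and from normexp and loess on the y axis, with the line of equality and dotted lines at 2-fold. All points lie below the line; Cep76, Pcm1 and Tubgcp5 pass 2-fold on the x axis alone, and Tubb2c falls past it on the y axis alone.

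The same families were also on the array under older or provisional names, found by the RefSeq symbol of the probe's accession after the values had been seen. Of 11 such Cep genes, 10 were measured, with 7 higher against 30.9% of all genes, 0 lower and a median log2 ratio of 1.67, and 5 were higher with normexp and loess against 18.3% of all genes. Cep78 had 12378, 13357 and 13924 in iPS F65 against 1901, 2053 and 2208 in mix1, at 6.44-fold. Cep135, a centriole assembly protein, had 696.8, 830.1 and 835.9 in iPS F65 against 189.4, 222.7 and 222.0 in mix1, at 3.72-fold. Cep57l1, Cep95, Cep44, Cep83 and Cep19 had log2 ratios of 1.99, 1.95, 1.88, 1.47 and 1.19 by their brightest probes. A further tested probe of Cep95 and one of Cep83 were not well above background in mix1 on any array, and read at least 1.23-fold and at least 3.30-fold higher in iPS F65. Cep63 at 0.58 and Cep41 at 0.01 were among those not called.

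Among tubulins under other names, Tuba3a had a log2 ratio of 0.45 and was not called. Tuba8, an alpha-tubulin of muscle and testis, had 16.1, 13.2 and 13.3 in iPS F65 against 397.1, 470.8 and 473.7 in mix1. It was not well above background in iPS F65, so it was at least 6.81-fold lower there, and its second probe did not pass the filter. Among the alpha- and beta-tubulins examined here, it was the 1 gene called lower from the processed signals by its brightest probe.

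Of 30 other genes of microtubule nucleation and the spindle poles tested, 17 were higher and 2 lower in iPS F65, with a median log2 ratio of 1.07, against 30.9% higher and 24.5% lower over all genes. With normexp and loess 6 were higher, a share close to the 18.3% of all genes, and 2 lower, against 26.1% of all genes. The largest increases called were Ccp110, which caps the centriole, at a log2 ratio of 2.75, and Pibf1, a satellite protein, at 2.11. The lower genes were Tacc1, a relative of the spindle protein Tacc3, with -1.21, and Cntln (centlein), which was well above background on 1 of 3 arrays in iPS F65, so the size of its difference is not given.

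Among tubulin folding and modifying enzymes, chaperonin genes made up most of those higher. Of 22 tested, 9 were higher and 1 lower, and the median log2 ratio was 0.75, against 30.9% higher and 24.5% lower over all genes. The chaperonin, which folds newly made tubulin and actin, was represented by Cct6a at a log2 ratio of 2.52 and Cct2 at 1.06, and the tubulin cofactor Tbce stood at 1.99. The lower gene was Ttll3, an enzyme that adds glycine to tubulin, at -1.06, well above background on 2 of 3 arrays in iPS F65. With normexp and loess 8 were higher and 3 lower, against 18.3% higher and 26.1% lower over all genes. The lower ones were the cofactor Tbcc, the tubulin acetyltransferase Atat1 and the deacetylase Hdac6, at -1.21, -1.23 and -1.16.

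Of 25 microtubule-associated and destabilising proteins tested, 12 were higher and 7 lower, with 30.9% and 24.5% over all genes, and the median log2 ratio was 0.80. The counts were 5 higher and 8 lower with normexp and loess, with 18.3% and 26.1% over all genes. Map7, which binds along microtubules and recruits kinesin, had a log2 ratio of 4.45, well above background on 2 of 3 arrays in mix1. Mapt (tau), the microtubule-binding protein of axons, was well above background on 1 of 3 arrays in mix1, with log2 ratios of 0.64, 3.92 and 3.20 on the arrays. Katnal1, a relative of the microtubule-severing protein katanin, and Map1a, a neuronal microtubule protein, were not well above background in iPS F65 and were at least 50.7-fold and at least 15.6-fold lower there.

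Of 19 proliferation genes tested, 16 were higher, 0 lower and 3 neither, with a median log2 ratio of 1.70, against 30.9% of all genes higher. There were 13 higher with normexp and loess, against 18.3% of all genes. Bub1b and Bub1, kinases of the spindle checkpoint, had the largest ratios, with 2.75 and 2.67. The summed signal of the list was 625415 to 734307 in iPS F65 and 212647 to 246748 in mix1. The part of proliferation in the centrosome values was not tested.

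The labelled cell sources were checked by their markers, with counts to be read beside the 30.9% of all genes called higher and 24.5% called lower. In iPS F65, 6 of 8 pluripotency names were higher, with Epcam, an adhesion protein of epithelial and pluripotent cells, at least 28.3-fold higher, and Pou5f1, a pluripotency factor not well above background in mix1, at least 4.53-fold higher. Nr0b1, a nuclear receptor of pluripotent cells, had a log2 ratio of 4.87. The names not called were Lin28 and Lin28a, at -0.02 and -0.17, which may be 1 gene under 2 names. All 10 fibroblast markers were lower in iPS F65, with a summed signal of 21433 to 26215 in iPS F65 against 1613649 to 2044914 in mix1, and Postn, a matrix protein of fibroblasts, was at least 482-fold lower. Of 10 macrophage and myeloid markers, 9 were lower, with a summed signal of 3185 to 3996 in iPS F65 against 221170 to 258571 in mix1. Of 7 markers of testis and multiciliated cells, cells rich in centrioles or their derivatives, 1 was higher and 3 were lower, with a summed signal of 640 to 779 in iPS F65 against 875 to 1076 in mix1. RNA of the mouse feeder cells could bind these rat probes, and this was not tested. The share of gene spots read well above background ran from 57.1% to 61.2% over the arrays in iPS F65, and from 58.3% to 62.1% in mix1.

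RefSeq promoters, 250 bases before to 50 after the gene start on build GRCr8, were found for 29 of the 31 members, 20 centrosome genes and 9 tubulins. They were searched on both strands for CCAAT, the box bound by the factor NF-Y, for TTTGAA, the cell cycle element called CHR, and for TTCCCGCC, a form of the E2F site. The promoters of Plk4, Cep152 and Tubb2c are shown in order, because they hold these letters and belong to genes called higher and to a tubulin that was not, with the matches of either strand in capitals.
Plk4, chr2:125730230-125730529, plus strand: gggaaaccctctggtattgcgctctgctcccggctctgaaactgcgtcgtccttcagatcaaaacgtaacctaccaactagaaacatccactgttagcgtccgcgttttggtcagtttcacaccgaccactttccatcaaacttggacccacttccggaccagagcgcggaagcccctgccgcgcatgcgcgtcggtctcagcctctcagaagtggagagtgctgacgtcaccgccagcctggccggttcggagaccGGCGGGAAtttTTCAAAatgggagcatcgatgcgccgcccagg
Cep152, chr3:133331606-133331905, minus strand: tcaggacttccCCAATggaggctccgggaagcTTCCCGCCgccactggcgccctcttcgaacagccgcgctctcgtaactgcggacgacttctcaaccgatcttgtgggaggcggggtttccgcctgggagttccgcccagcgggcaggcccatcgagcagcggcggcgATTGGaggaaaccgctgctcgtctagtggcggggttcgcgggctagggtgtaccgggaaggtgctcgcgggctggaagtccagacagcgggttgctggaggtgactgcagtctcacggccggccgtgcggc
Tubb2c, chr3:28438406-28438705, minus strand: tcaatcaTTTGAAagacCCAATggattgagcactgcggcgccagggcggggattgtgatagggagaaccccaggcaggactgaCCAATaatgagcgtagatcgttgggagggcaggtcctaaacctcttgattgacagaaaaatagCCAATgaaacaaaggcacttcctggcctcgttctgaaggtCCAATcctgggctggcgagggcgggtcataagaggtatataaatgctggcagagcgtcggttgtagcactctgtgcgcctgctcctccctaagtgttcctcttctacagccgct
The E2F form was in 4 of 20 centrosome promoters and in 0 of 9 tubulin promoters, against 1.91% of all 33469 promoters. Those 4 were of Plk4, Cep152, Cep1 and Cep76, all called higher, as were 15 of the 20 centrosome genes with a promoter. Cep76 was not called with normexp and loess. The CHR letters were in 7 of 20 centrosome and 2 of 9 tubulin promoters, against 18.3% of all. CCAAT was in 8 of 20 centrosome and 7 of 9 tubulin promoters, against 37.5% of all. None of these motifs contains another, and a match is a description of the sequence and not evidence of binding.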

How the data were processed

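Total RNA of 3 iPS F65 samples (Cy3) and of mix1 (Cy5) was measured on 3 two-colour Agilent arrays on 1 slide, in 1 scan. Per the file headers, the deposited intensity values come from Agilent Feature Extraction 9.5.3.1, which subtracted the background and normalized the dyes within each array; the array design uses build rn3, and the deposited flags mark spots well above background, outliers and saturation. The series matrix holds log2 values deposited by the authors, which equalled the log2 ratio of processed green over red signals (largest difference 3.11e-06).

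Here the log2 ratio of processed signals, iPS F65 over mix1, was taken per array, spots of a probe were averaged without control and outlier spots, and probes well above background on all 3 arrays in either channel were tested with limma 3.58.1 (R 4.3.3, lmFit and eBayes, mean ratio against 0, 2 residual degrees of freedom), adjusted by Benjamini-Hochberg over all genes. A gene was its brightest tested probe. Called genes had an adjusted p under 0.05 and a log2 ratio of at least 1 either way. A bound was set against the lowest signal well above background. The script was tested on simulated data. The number of arrays limits the precision. Symbols and promoters came from RefSeq (GRCr8). The members and gene lists were chosen with earlier results of these data known. Any member may be named, and of each list the 2 called genes with the largest and the 2 with the smallest log2 ratio, plus examples chosen after their values were seen. Alternatives were normexp (offset 50) with loess, backgrounds as given or not subtracted, centring, filters on dim probes, the median over probes, the series matrix values, gamma-tubulin counted with the tubulins and leaving out each replicate.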

Additional observations from a re-analysis of the deposited data

How the results depend on the processing

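The test was on the ratio within each array, so each iPS F65 sample was paired with mix1 on the same array. Because mix1 was 1 control sample, these pairs hold no spread of mix1. Of the 29 measured members, all kept their direction and their call with the series matrix values, with each array's median set to 0, with either filter on dim probes, with the median over probes, and without replicate 1 or replicate 2. With normexp and loess, 24 kept both. Azi1 reversed, to -0.19 with normexp, -0.037 with backgrounds as given, -0.18 with no background subtraction and -0.031 with the median of the tested genes set to 0, an alternative chosen after seeing the data. Centrosome genes called higher were 13 with normexp and 8 with backgrounds as given, where Cep55, Cep76, Cetn2, Nin, Sass6, Stil, Tubgcp3 and Tubgcp5 lost their call, at 0.35 to 1.27 on the log2 scale, with the cause not tested. The tubulin count lower was 1 with normexp and with no background subtraction (Tubb2c), and the count higher ranged from 0 to 1 when replicates were left out (Tubb4, without replicate 3). The centrosome minus tubulin median was 1.75 with normexp, 1.25 with backgrounds as given, 1.73 with no background subtraction, 1.76 with the median over probes and 1.87 with no filter on dim probes, and 1.92 to 1.97 without single replicates. With gamma-tubulin counted with the tubulins it was 1.97. Without Pcnt1, an alternative not planned beforehand, it was 1.99.

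All genes higher were 3980 with normexp, 2355 with backgrounds as given and 3975 with no background subtraction, against 6731; all genes lower were 2081 with backgrounds as given and 3235 when both channels had to be above background (fewer genes tested), against 5340. Nucleation and pole genes higher were 6 with normexp and with no background subtraction, 7 with backgrounds as given and 10 with the median of the tested genes set to 0; lower was 1 with backgrounds as given and with both channels above background. Folding and modifying genes lower were 3 with normexp and with no subtraction, 0 with backgrounds as given and with both channels above background, 4 with the median set to 0, and 0 to 1 without single replicates. Microtubule-associated genes higher were 5 in each of the 3 settings on mean signals; lower were 3 with backgrounds as given and with both channels above background. The cause of these moves was not tested, other than the smaller number of genes under the stricter filter. Dim probes limit ratios to bounds.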
